A study of Homo sapiens with 9 samples.

Results

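DNA repair and damage checkpoint genes were followed in WI-38 cells, a human diploid fibroblast line from embryonic lung, after a pulse of doxorubicin. The genes were chosen by their symbols, with a pattern that covers the Fanconi (FANC), BRCA, RAD, XRCC, XP, ERCC, MSH, MLH, PMS, DNA polymerase (POL), PARP, NEIL and checkpoint kinase families and single genes such as ATM, BLM and CLSPN, and 66 of the 6499 genes in the deposited table carried such a symbol. Cells at population doubling (PD) 30 received the DMSO carrier (control group, 3 libraries) or 1 μM doxorubicin (model group, 3 libraries) for 12 h, and both groups then stayed in medium with DMSO for 48 h. In a further group of 3 libraries, oridonin was given over the 48 h after doxorubicin; these libraries were not analysed here. All cells are of 1 line, and no label says that the 3 libraries of a group came from separate cultures, so p-values measure the spread between these libraries, which may be technical.

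Doxorubicin is an anthracycline that traps topoisomerase II on DNA and leaves double-strand breaks. Such breaks are rejoined by non-homologous end joining in any phase of the cell cycle, or copied from the sister chromatid by homologous recombination in S and G2 phase. The Fanconi anaemia proteins unhook crosslinks between DNA strands, mismatch repair corrects errors of replication, and nucleotide and base excision repair remove bulky lesions and single damaged bases. The kinases ATM and ATR sense damage and pass the signal to CHK2 and CHK1, which hold the cell cycle. Many genes of homologous recombination, of the Fanconi pathway and of replication are known to be transcribed mainly in S phase under E2F factors, whereas DDB2 and XPC are known p53 target genes.

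Values were read as TPM, transcript levels corrected for length and scaled to a common total in each library, a unit the table does not name. The table lists only genes that passed the authors' thresholds (1.2-fold change, p below 0.05) in their own comparison of the same 6 libraries, so a test here describes size and spread and is no independent evidence. Of the 126 annotated protein-coding genes that match the pattern, 65 are listed, and the others, among them ATR, XRCC5, XRCC6 and POLH, were not analysed here. The member left is the pseudogene PMS2P10. Listed were 9 of 14 Fanconi, 15 of 21 homologous recombination, 10 of 14 checkpoint, 7 of 12 polymerase and 5 of 8 end joining genes. Also listed were 6 of 11 base excision, 3 of 11 nucleotide excision, 3 of 9 mismatch repair and 2 of 7 translesion synthesis genes. POLQ, a polymerase of end joining at microhomology, is counted under homologous recombination. Pearson's r of log2(TPM + 1) across genes, which are not independent replicates, was 0.992 to 0.995 within groups and 0.935 to 0.958 between them. Because TPM does not retain read numbers, the sequencing depth could not be given.

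Most of the listed repair and checkpoint genes that were tested were downregulated in the doxorubicin group compared with the control group, on the values as deposited. Among the 61 members with a mean of at least 1 TPM, 44 (72.1%) were called lower and 4 (6.56%) were called higher, which took a fold change over 1.2 and a Benjamini-Hochberg adjusted p under 0.05 in limma. Among all 5721 genes tested, 48.5% were called lower and 22.7% higher by the same rule. The other 1645 genes, 13 members among them, were not called here, so for these the fit differs from the authors' comparison. The median log2 fold change of the members tested was -0.70, against -0.28 over all genes tested. The 4 upregulated members were XPC and DDB2 of nucleotide excision repair, POLD4 of polymerase delta, and PMS2P10. In 45 of the members tested every doxorubicin library lay below every control library (48.4% of all genes tested), and in 6 every doxorubicin library lay above (32.3% of all genes tested). The log2 fold change lay below -1 in 13 members, of which FANCB alone was not called. Some members averaged under 1 TPM after doxorubicin and passed the filter through the control libraries. RAD51AP1, FANCD2, RAD54L, BRIP1, CLSPN, BLM and EXO1 are among them. These counts, and the p-values of such genes, are therefore descriptions. The 5 members under 1 TPM on average (NEIL3, POLQ, BRCA2, XRCC2 and ERCC6L) were not tested, and in each of them all doxorubicin libraries lay below all control libraries.

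**Figure D1:**
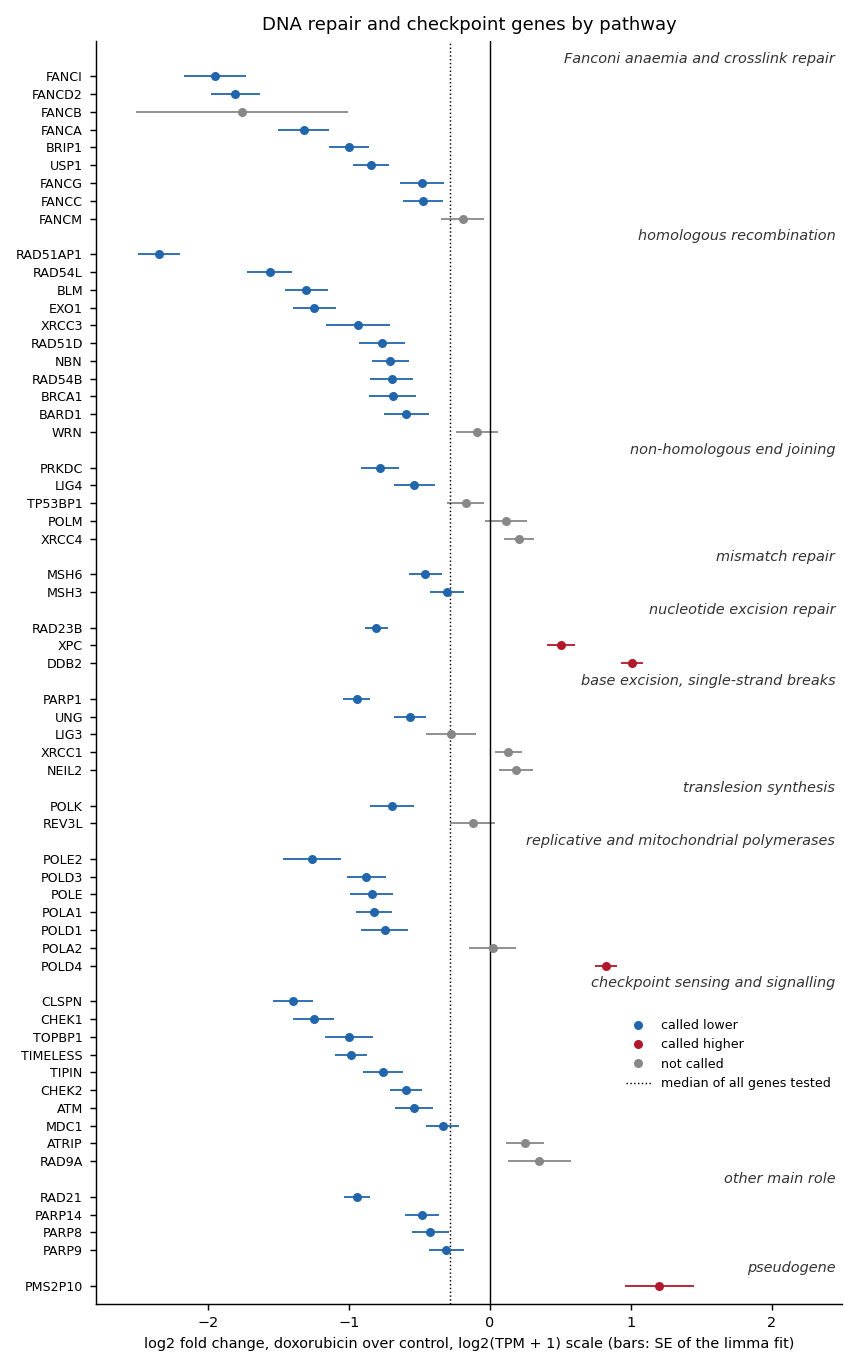
Log2 fold change (doxorubicin over control, log2(TPM + 1) scale) of 59 of the 61 members tested, by pathway, with the standard error of the limma fit as bars, blue for genes called lower, red for genes called higher and grey for the rest. The points run from RAD51AP1 at -2.35 to PMS2P10 at 1.2, and most lie left of the dotted line at -0.28, the median of all genes tested.

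The number of downregulated genes depended on the scale. Quantile normalization gives the libraries the same distribution and moves the median of all genes tested from -0.28 to -0.01. After it, 29 members (47.5% of those tested) were lower and 10 higher, against 28.7% lower and 33.0% higher over all genes tested. The share of lower genes among the called members was 91.7% as deposited and 74.4% after quantile normalization, and over all genes called it was 68.1% and 46.5%. The 29 members lower after quantile normalization were also lower as deposited and after centring each library on its median. The median of the members was -0.36 after quantile normalization. The 6 members that were called higher on this scale and not as deposited were XRCC1, NEIL2, ATRIP, RAD9A, POLM and XRCC4. Quantile normalization and median centring were run on genes selected in this same comparison, so which scale lies nearer the true levels cannot be told. Levels after DNA damage are relative here, and a change of the total RNA per cell would not be seen.

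**Figure D2:**
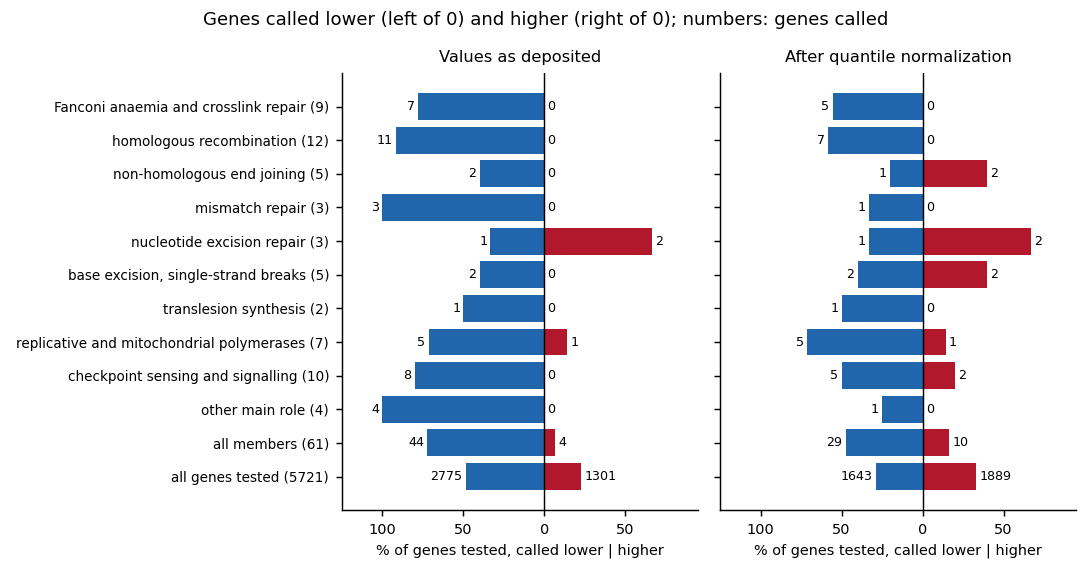
Share of the genes tested in each pathway (number tested in parentheses) called lower, left of 0, or higher, right of 0, in percent, on the values as deposited and after quantile normalization, with the number of genes called beside each bar. Fanconi and homologous recombination genes were called in the lower direction alone on both scales, with 7 and 11 genes as deposited and 5 and 7 after quantile normalization.

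Proliferation markers moved with the repair genes. Of the 8 markers of cycling cells listed, 7 were lower after doxorubicin and PCNA, the sliding clamp of replication and repair, was higher. MKI67, the Ki-67 antigen of cycling cells, stood at 8.48, 9.11 and 7.02 TPM in the controls and at 0.11, 0.01 and 0.02 TPM after doxorubicin, and CDK1, the kinase that starts mitosis, at 14.6, 16.1 and 13 TPM and 0.15, 0.09 and 0.28 TPM. These levels were near 0 in every doxorubicin library. PCNA stood at 119, 124 and 115 TPM and 209.9, 194 and 168 TPM, with no overlap between the groups. The summed level of the 8 markers was 242 to 282 TPM in the control libraries and 182 to 224 TPM in the doxorubicin libraries. PCNA made up most of the sum in the doxorubicin libraries but not in the control libraries. In bulk RNA fewer cycling cells and less of an RNA in each cell cannot be told apart, and the part that the cell cycle had in the changes below was not tested. The collagen genes COL1A1, COL1A2 and COL3A1 and the receptors PDGFRA and PDGFRB, the 5 listed of 11 fibroblast markers, were expressed in all libraries, with a summed level of 5842 to 6195 TPM in the control and 3930 to 4616 TPM in the doxorubicin libraries, and all 5 were called lower. Of 5 epithelial markers 3 were listed, at 135 to 150 TPM in sum before and 283 to 307 TPM after doxorubicin, chiefly KRT19. PTPRC, the 1 listed of 5 blood markers, stayed under 1 TPM, and the 4 endothelial markers were not analysed here.

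Promoters are shown for RAD51AP1, the member with the largest fall, for FANCD2 and POLE2 as downregulated genes of crosslink repair and replication, and for DDB2 and XPC as upregulated genes of 1 pathway. They come from a RefSeq table for GRCh38.p14 that holds 250 bases before and 50 after the start site, printed here to base 30 after it. Of a gene with several promoters, the one with the most kinds of motif was printed, so the DDB2 window was picked by its matches. In capitals are matches, on either strand, to an E2F-like site (TTTGGCGC, TTTCCCGC, TTTGCCGC or TTTCGCGC), a cell cycle homology region or CHR (TTTGAA and also TTCGAA), the CCAAT box and the p53 decamer, the repeat unit of a p53 response element. The windows are chr12:4538640-4538919 (plus strand), chr3:10026187-10026466 (plus strand), chr14:49688185-49688464 (minus strand), chr11:47214724-47215003 (plus strand, the second of the gene's 2 promoters) and chr3:14178572-14178851 (minus strand).
RAD51AP1: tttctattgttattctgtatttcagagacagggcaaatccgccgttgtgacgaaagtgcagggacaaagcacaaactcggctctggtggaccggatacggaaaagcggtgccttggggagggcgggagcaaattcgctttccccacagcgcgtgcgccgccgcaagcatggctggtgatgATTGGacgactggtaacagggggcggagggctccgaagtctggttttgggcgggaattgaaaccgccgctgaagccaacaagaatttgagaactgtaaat
FANCD2: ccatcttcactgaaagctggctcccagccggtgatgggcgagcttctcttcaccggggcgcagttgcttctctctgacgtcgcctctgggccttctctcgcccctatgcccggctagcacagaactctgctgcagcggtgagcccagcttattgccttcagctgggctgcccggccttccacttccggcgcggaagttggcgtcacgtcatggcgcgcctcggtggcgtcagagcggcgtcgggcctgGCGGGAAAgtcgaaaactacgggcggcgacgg
POLE2: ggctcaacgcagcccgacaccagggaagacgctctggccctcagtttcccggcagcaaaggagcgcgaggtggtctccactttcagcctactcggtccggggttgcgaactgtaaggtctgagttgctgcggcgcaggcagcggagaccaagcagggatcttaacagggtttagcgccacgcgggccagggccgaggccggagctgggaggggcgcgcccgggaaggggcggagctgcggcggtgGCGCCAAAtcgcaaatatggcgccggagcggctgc
DDB2: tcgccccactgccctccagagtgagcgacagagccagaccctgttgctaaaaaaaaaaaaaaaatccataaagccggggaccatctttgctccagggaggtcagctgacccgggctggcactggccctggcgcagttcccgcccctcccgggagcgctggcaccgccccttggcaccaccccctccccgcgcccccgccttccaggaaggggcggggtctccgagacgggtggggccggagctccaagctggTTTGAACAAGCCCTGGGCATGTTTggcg
XPC: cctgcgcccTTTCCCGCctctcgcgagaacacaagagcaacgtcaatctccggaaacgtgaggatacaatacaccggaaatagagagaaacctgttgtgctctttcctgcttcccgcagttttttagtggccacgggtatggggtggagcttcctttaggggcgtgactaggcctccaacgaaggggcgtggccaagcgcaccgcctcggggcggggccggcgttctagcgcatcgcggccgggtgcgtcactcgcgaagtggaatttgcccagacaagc
The promoters of FANCD2 and POLE2 held an E2F-like match across the start site, GCGGGAAA from base -2 to 6 and GCGCCAAA from base -5 to 3 (base 1 is the first transcribed base, and there is no base 0). XPC held TTTCCCGC from base -241 to -234, and RAD51AP1 held a CCAAT box alone. DDB2 held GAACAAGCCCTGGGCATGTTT from base 6 to 26, a pair of p53 decamers with 1 base between them, and its CHR match from base 3 to 8 overlaps the first decamer. The other promoter of DDB2 held a CCAAT box and neither a CHR nor a p53 decamer. A match is a description of letters and not a bound site.

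Of the 66 members, 55 had an entry in the promoter table, with 83 promoters in all, and 11 had none, among them FANCI, NBN, NEIL2, PMS2P10, POLD3, PRKDC, RAD21, RAD54B and WRN. An E2F-like match stood in 13 of the 60 promoters of members called lower (21.7%), in as many genes. It stood in 3 of the 18 promoters of members not called or not tested (16.7%) and in 1 of the 5 of members called higher (20%), shares near that of the members called lower but from few promoters. Over all 35116 promoters of the table the share was 3.31%, and over promoters of the other listed genes it was 5.01%. Over all members, whatever their call, 17 of 83 promoters (20.5%) held one. They were 4 of 8 promoters of the replicative polymerases, 3 of 10 of the Fanconi genes, 3 of 15 of the checkpoint genes, 2 of 15 of homologous recombination, 2 of 5 of mismatch repair, 1 of 6 of base excision, 1 of 6 of nucleotide excision and 1 of 3 of translesion synthesis, with none among the 8 of end joining. A CCAAT box stood in 46.7% of the promoters of members called lower, in 55.6% of those not called or not tested, in 60% of those called higher and in 34.6% of all promoters. A CHR stood in 10%, 22.2%, 20% and 16.4% in the same order. A p53 decamer stood in 5% of the promoters of members called lower and in 6.63% of all promoters. A pair of decamers with at most 13 bases between them stood in 1 promoter of the members, 1 of the 2 of DDB2, and in 10 of all promoters (0.0285%). Promoters of 1 gene can overlap and share letters, and no test was run on these shares.

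**Figure D3:**
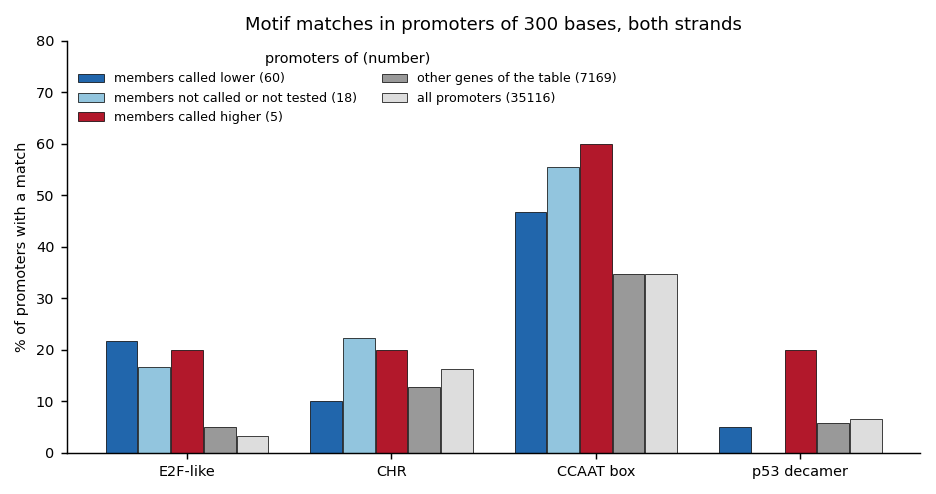
Share of promoters, in percent, with at least 1 match to each motif on either strand, for members called lower (60 promoters), members not called or not tested (18), members called higher (5), other genes of the deposited table (7169) and all promoters of the RefSeq table (35116). The E2F-like bars of the members stand at 21.7%, 16.7% and 20% in that order, against 5.01% and 3.31%.

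The Fanconi anaemia pathway had 9 listed members, with a median log2 fold change of -1. Of these 7 were downregulated (77.8%, against 48.5% of all genes tested) and none upregulated (against 22.7%). FANCD2 and FANCI form the clamp that is ubiquitinated at a crosslink. FANCD2 (ENSG00000144554, chr3:10026414-10101930) stood at 4.71, 5.61 and 3.88 TPM in the controls and at 0.47, 0.44 and 1.03 TPM after doxorubicin. No doxorubicin value came near the control range, and the mean was 13.7% of the control mean (log2 fold change -1.81 ± 0.17 SE, adjusted p = 1.43e-05 in limma). FANCI (ENSG00000140525, chr15:89243949-89317261) fell from 9.24, 15.9 and 8.14 TPM to 2.13, 1.57 and 2.39 TPM, a log2 fold change of -1.95 ± 0.22 (adjusted p = 6.10e-05). The groups did not overlap, and control replicate 2 was the highest library for both genes. The ratio of FANCD2 to FANCI within a library, at 0.51, 0.35 and 0.48 in the control and 0.22, 0.28 and 0.43 in the doxorubicin libraries, overlapped between the groups, so no change of their ratio was shown. The exons of FANCI overlap POLG and those of FANCD2 overlap FANCD2OS, on the other strand in both cases, and whether the counting used strand is not stated.

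Other members of the Fanconi pathway had log2 fold changes closer to 0 with 1 TPM added, and the difference was not tested. For FANCB this order rests on the 1 TPM. With 0.1 TPM added FANCB stood at -3.05, against -2.77 for FANCD2 and -2.35 for FANCI. FANCA and FANCG of the core complex had log2 fold changes of -1.32 and -0.48, the helicase BRIP1 one of -1, the deubiquitinase USP1 one of -0.84, and FANCC one of -0.47. FANCG and FANCC were called neither after quantile normalization (adjusted p = 0.376 and 0.247) nor after median centring (0.141 and 0.117) in limma. FANCG was also no longer called without control replicate 1 (adjusted p = 0.0628), control replicate 2 (0.0701) or doxorubicin replicate 2 (0.0534) in the limma fits. FANCB, a core complex subunit, was read at 12.6, 2.11 and 0.81 TPM in the controls and 0.23, 0.3 and 0.24 TPM after doxorubicin. Its groups did not overlap, yet control replicate 1 lay far above the other controls, and its log2 fold change of -1.76 ± 0.75 was not called (adjusted p = 0.0775 in limma). It was called lower without control replicate 1 (-0.92, adjusted p = 0.00526) and without control replicate 3 (-2.37, adjusted p = 0.0277). It was also called lower with 0.1 TPM added (adjusted p = 0.0173 in limma) and with no filter on low values (0.0467). FANCM, the translocase that anchors the core complex, overlapped between the groups (log2 fold change -0.20, 95% interval -0.53 to 0.14).

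Homologous recombination had 15 listed members, POLQ of end joining at microhomology among them. Of the 15, 12 were tested, without POLQ, and their median was -0.85. Of those tested 11 were downregulated (91.7%, against 48.5% of all genes tested) and none upregulated (against 22.7%). RAD51AP1, which promotes strand pairing, showed the largest fall of all members. RAD51AP1 (ENSG00000111247, chr12:4538798-4560048) went from 4.95, 6.45 and 4.41 TPM to 0.3, 0.21 and 0.15 TPM. The doxorubicin mean was 4.17% of the control mean, far outside the spread of either group (log2 fold change -2.35 ± 0.15, adjusted p = 6.48e-07 in limma). The gene passed the filter of 1 TPM through its control libraries, so the p-value is a description. The translocase RAD54L, the helicase BLM and the exonuclease EXO1 had log2 fold changes of -1.56, -1.30 and -1.25, all with adjusted p-values of 7.53e-05 or less in limma, and XRCC3 and RAD51D, which assist strand exchange, had -0.94 and -0.77.

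BRCA1 and its partner BARD1 were also called lower as deposited. BRCA1 (ENSG00000012048, chr17:43044295-43170245), a ubiquitin ligase that promotes end resection, stood at 3.53, 4.26 and 4.92 TPM in the controls and 1.71, 2.11 and 2.98 TPM after doxorubicin. The highest doxorubicin value lay below the lowest control value by a small margin, and the log2 fold change was -0.69 ± 0.17 (adjusted p = 0.00395 in limma). After quantile normalization it was -0.33 and was not called (adjusted p = 0.0962). BARD1 had a log2 fold change of -0.59 and was called neither after quantile normalization (-0.31, adjusted p = 0.0986) nor after median centring (adjusted p = 0.0615 in limma). The ratio of BRCA1 to BARD1 overlapped between the groups (3.5, 2.24 and 3.19 against 3.11, 3.77 and 3.82). BRCA2 (ENSG00000139618, chr13:32315474-32400266), a mediator of recombination, was below the level for testing, with 1.04, 1.99 and 0.48 TPM in the controls and 0.08, 0.13 and 0.06 TPM after doxorubicin. The control libraries of BRCA2 differed widely among themselves, and all lay above the doxorubicin libraries. POLQ, the polymerase of end joining at microhomology, stood at 0.78, 1.24 and 1.68 TPM and then at 0.06 TPM in each doxorubicin library. NBN, a subunit of the MRN complex that detects breaks, had a log2 fold change of -0.71 and RAD54B one of -0.70. RAD54B was not called after quantile normalization (adjusted p = 0.0643 in limma), nor was RAD51D, whose adjusted p lay just above 0.05. The helicase WRN overlapped between the groups (-0.09, 95% interval -0.42 to 0.24) and was the 1 tested member of homologous recombination that was not called.

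**Figure D4:**
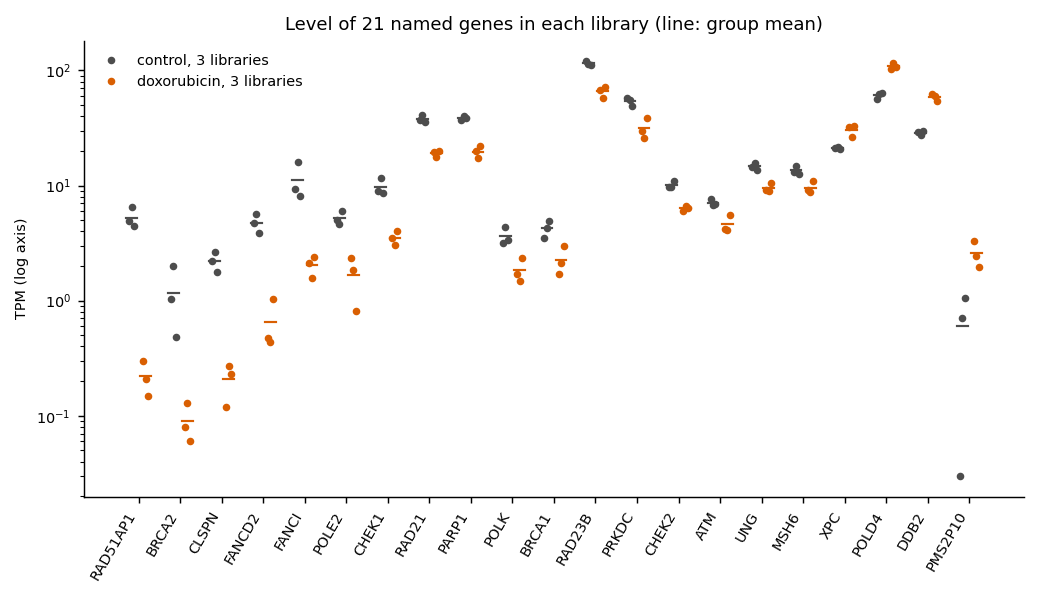
TPM (log axis) of 21 genes named by rule in the 3 control libraries (grey) and the 3 doxorubicin libraries (orange), with a line at each group mean, ordered by the ratio of the means. RAD51AP1, with 4.17% of the control mean left, stands at the left end, and XPC, POLD4, DDB2 and PMS2P10, all higher after doxorubicin, at the right end.

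Checkpoint sensing and signalling had 10 listed members (median -0.68). Of these 8 were downregulated (80%, against 48.5% of all genes tested) and none upregulated (against 22.7%). Claspin and CHK1 of the ATR branch fell most. CLSPN (ENSG00000092853, chr1:35720218-35769967), the adaptor through which ATR activates CHK1, stood at 2.19, 2.63 and 1.77 TPM and then at 0.12, 0.27 and 0.23 TPM. It kept 9.41% of the control mean, and the log2 fold change of -1.40 ± 0.14 (adjusted p = 2.58e-05 in limma) understates the fall, because 1 TPM was added before the log. CHEK1 (ENSG00000149554, chr11:125625136-125676255), the gene of CHK1, went from 8.88, 11.7 and 8.64 TPM to 3.48, 3.02 and 4 TPM (log2 fold change -1.25 ± 0.14, adjusted p = 5.50e-05). The groups stood well apart, with 35.9% of the control mean left. Exons of CHEK1 overlap STT3A on the same strand. TOPBP1, the activator of ATR, and the fork protection genes TIMELESS and TIPIN had log2 fold changes of -1, -0.99 and -0.76.

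The log2 fold changes of ATM, CHEK2 and MDC1 lay closer to 0 than those of the 5 genes above, a difference that was not tested. It does not hold for the ATR branch as a whole. ATRIP and RAD9A had log2 fold changes of 0.25 and 0.35, neither called, and ATR was not analysed here. ATM (ENSG00000149311, chr11:108222484-108369102), the kinase of double-strand breaks, stood at 7.62, 6.78 and 6.96 TPM and then at 4.16, 4.13 and 5.55 TPM (log2 fold change -0.54 ± 0.13, adjusted p = 0.00433 in limma). CHEK2 (ENSG00000183765, chr22:28687743-28742422), the gene of CHK2, went from 9.69, 9.69 and 11 TPM to 5.97, 6.7 and 6.35 TPM (log2 fold change -0.60 ± 0.11, adjusted p = 9.95e-04). For both genes all doxorubicin libraries lay below all control libraries, but neither was called after quantile normalization (ATM -0.16, adjusted p = 0.175; CHEK2 -0.27, adjusted p = 0.0625). The exons of ATM overlap NPAT and C11orf65 on the other strand. MDC1, which reads phosphorylated H2AX at breaks, had a log2 fold change of -0.34 and was not called in the limma fits without control replicate 1 (adjusted p = 0.0575), control replicate 2 (0.0618) or doxorubicin replicate 1 (0.0984). After quantile normalization its direction turned (0.03, adjusted p = 0.771), and after median centring it was not called (adjusted p = 0.438). ATRIP, the partner of ATR, overlapped between the groups at 4.09, 4.53 and 5.79 TPM and 5.99, 6.1 and 5.43 TPM, and its exons overlap TREX1 on the same strand. It was called higher without control replicate 3 (log2 fold change 0.37, adjusted p = 0.0378 in limma). RAD9A of the 9-1-1 clamp stood at 7.25, 8.32 and 5.2 TPM and 5.94, 10.9 and 10.9 TPM, and was called higher without doxorubicin replicate 1 (0.61, adjusted p = 0.0154). The ratio of ATRIP to TOPBP1 was 0.61, 0.56 and 0.65 in the control and 1.92, 2.22 and 1.16 in the doxorubicin libraries, with no overlap.

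Among the replicative polymerases, listed subunits of polymerase delta were called in opposite directions, while those of polymerase epsilon were all called lower. Of 7 listed subunits 5 were downregulated and 1 upregulated (71.4% and 14.3%, against 48.5% and 22.7% of all genes tested), with a median of -0.83. POLE2 (ENSG00000100479, chr14:49643555-49688422), the second subunit of polymerase epsilon, went from 5.05, 4.67 and 5.97 TPM to 2.33, 1.84 and 0.82 TPM (log2 fold change -1.27 ± 0.21, adjusted p = 4.90e-04 in limma). The groups did not overlap, though doxorubicin replicate 3 lay below the other doxorubicin libraries. The catalytic subunits POLE, POLA1 and POLD1 had log2 fold changes of -0.84, -0.83 and -0.75, and POLD3 of polymerase delta one of -0.88. POLD4 (ENSG00000175482, chr11:67350777-67356972), the smallest subunit of polymerase delta, rose from 56.8, 63 and 64.1 TPM to 103, 117 and 108 TPM. It was 178% of the control mean, with no overlap (log2 fold change 0.82 ± 0.08, adjusted p = 1.11e-05 in limma), and was called higher on every scale. Its exons overlap another gene model, AP003419.1, on the same strand, so reads from that model may be counted here. POLA2, the regulatory subunit of polymerase alpha, overlapped between the groups at 6.45, 7.09 and 10.7 TPM and 7.38, 7.9 and 8.83 TPM (log2 fold change 0.02, 95% interval -0.35 to 0.39).

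Ratios between partners of a complex do not depend on any constant by which a library is scaled. The ratio of POLD4 to POLD1 was 3.84, 5.56 and 6.81 in the control libraries and 18.6, 17.8 and 14.1 in the doxorubicin libraries (means 5.40 ± 1.49 and 16.8 ± 2.37, SD, n = 3 each). That of POLA2 to POLA1 was 2.27, 2.5 and 4.7 and then 7.53, 7.31 and 8.03. Both ratios were higher in every doxorubicin library than in any control library, so the values read for these subunits changed unequally. Exons of POLD1 and POLA2 also overlap gene models on the same strand (AC020909.1 and AP000944.2), whose reads may be counted here. The ratio of POLE to POLE2 overlapped, with 1.49, 1.89 and 1.34 against 1.9, 1.67 and 6.04. With 3 libraries a group, an exact two-sided permutation test of 1 ratio or 1 gene has 0.1 as its smallest p.

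**Figure D5:**
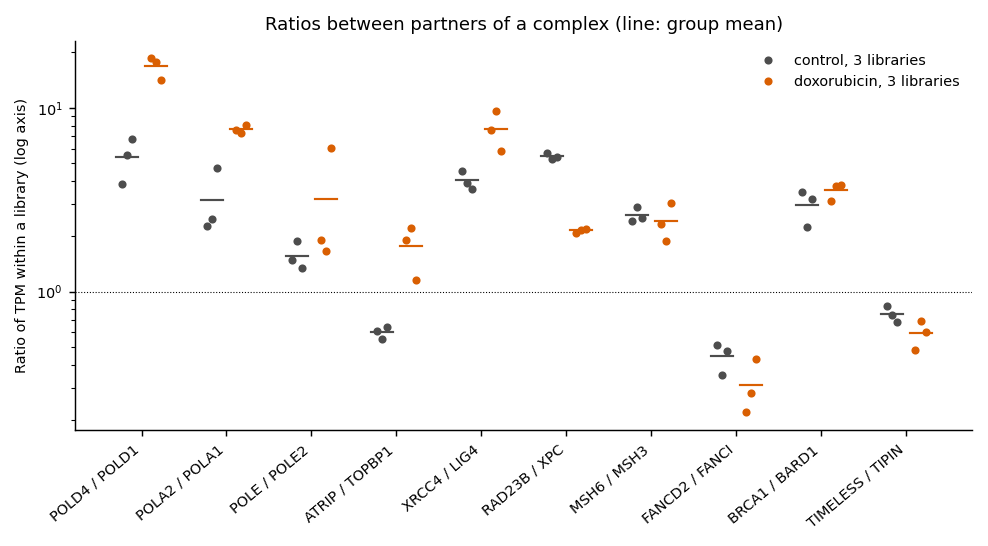
Ratio of the TPM of 2 partners within each library (log axis) in the control (grey) and doxorubicin (orange) libraries, with a line at each group mean and a dotted line at a ratio of 1. The mean of POLD4 over POLD1 went from 5.40 to 16.8 and that of RAD23B over XPC from 5.46 to 2.16, while those of FANCD2 over FANCI, BRCA1 over BARD1, MSH6 over MSH3, POLE over POLE2 and TIMELESS over TIPIN overlap between the groups.

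Nucleotide excision repair had 3 listed members, 2 upregulated and 1 downregulated (66.7% and 33.3%, against 22.7% and 48.5% of all genes tested). DDB2 (ENSG00000134574, chr11:47214465-47239240), the subunit that recognises ultraviolet lesions, rose from 29.1, 27.6 and 29.7 TPM to 62.1, 59.7 and 54.7 TPM. The doxorubicin mean was 204% of the control mean, and every doxorubicin library was far above every control library (log2 fold change 1.01 ± 0.08, adjusted p = 3.50e-06 in limma). Of the 2 promoters of DDB2, the one printed above holds the pair of p53 decamers, and a link to the rise was not tested. XPC (ENSG00000154767, chr3:14145147-14178783), the sensor of distorted DNA, rose from 21, 21.7 and 20.7 TPM to 32.2, 26.6 and 32.6 TPM (log2 fold change 0.50 ± 0.10, adjusted p = 0.00119). Its groups did not overlap, and doxorubicin replicate 2 was the lowest of that group. Exons of XPC overlap LSM3 on the other strand. RAD23B (ENSG00000119318, chr9:107283137-107332194), which stabilises XPC, was the member with the highest TPM in the control group and fell from 119.6, 114 and 112 TPM to 67.4, 58 and 71.7 TPM (log2 fold change -0.81 ± 0.08, adjusted p = 2.40e-05). The XPC and RAD23B transcripts thus moved in opposite directions, and the ratio of RAD23B to XPC went from 5.7, 5.28 and 5.39 to 2.1, 2.18 and 2.2, with no overlap. All 3 genes kept their calls after quantile normalization (DDB2 1.07, XPC 0.63, RAD23B -0.84).

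Mismatch repair had 3 listed members, all downregulated as deposited, against 48.5% of all genes tested. MSH6 (ENSG00000116062, chr2:47695530-47810101), which takes part in the recognition of single mismatches, went from 13.2, 14.8 and 12.7 TPM to 9.16, 8.72 and 10.9 TPM (log2 fold change -0.46 ± 0.12, adjusted p = 0.0055 in limma). It was lower in every doxorubicin library, and after quantile normalization it was not called (-0.20, adjusted p = 0.0574), nor after median centring, where its fold change was under 1.2. The ratio of MSH6 to MSH3 overlapped between the groups. MSH3, which takes part in the recognition of larger loops, is one of the members whose exons overlap another gene and was called at -0.31 (adjusted p = 0.0429 in limma), a call that was lost without any 1 of the control libraries, without doxorubicin replicate 1 or without doxorubicin replicate 3 (adjusted p = 0.0712 to 0.124). After quantile normalization its direction turned (0.09, adjusted p = 0.571 in limma), and after median centring it was not called (adjusted p = 0.741).

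Base excision and single-strand break repair had 6 listed members, 5 of them tested, of which 2 were downregulated. That is 40%, below the 48.5% of all genes tested. PARP1 (ENSG00000143799, chr1:226360691-226408079), the sensor of single-strand breaks, stood at 37.4, 40.4 and 38.5 TPM and then at 19.8, 17.4 and 22 TPM. It kept 50.9% of the control mean with little spread in either group (log2 fold change -0.95 ± 0.10, adjusted p = 2.48e-05 in limma). UNG (ENSG00000076248, chr12:109097574-109110992), which removes uracil from DNA, went from 14.5, 15.8 and 13.8 TPM to 9.14, 9.03 and 10.6 TPM (log2 fold change -0.57 ± 0.11, adjusted p = 0.00121). Neither gene's groups overlapped, and both were called after quantile normalization. The scaffold XRCC1 stood at 14.5, 15.3 and 15.9 TPM and 16.9, 17.3 and 16 TPM and was not called (0.13, 95% interval -0.08 to 0.34), nor were its partner LIG3 (-0.28) and the glycosylase NEIL2 (0.19). NEIL3, a glycosylase of replicating cells, was too low to test, at 1.39, 1.58 and 1.33 TPM and then at 0.09, 0.14 and 0.15 TPM. Its doxorubicin values all lay far below its control values.

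Non-homologous end joining had 5 listed members and a median of -0.17, with 2 downregulated (40%, below the 48.5% of all genes tested). PRKDC (ENSG00000253729), the catalytic subunit of DNA-PK, stood at 57.7, 55.7 and 49 TPM in the controls and 29.97, 25.6 and 38.9 TPM after doxorubicin (log2 fold change -0.78 ± 0.13, adjusted p = 7.48e-04 in limma). Doxorubicin replicate 3 was the highest of its group and still below every control library. The ligase LIG4 had a log2 fold change of -0.54 and was not called after quantile normalization (adjusted p = 0.232 in limma), and its partner XRCC4 stood at 20.00, 19.9 and 15.9 TPM and 22.6, 21.3 and 20.7 TPM, higher in every doxorubicin library but not called (0.20, adjusted p = 0.102 in limma). The ratio of XRCC4 to LIG4 was 4.56, 3.92 and 3.63 in the control and 7.6, 9.63 and 5.84 in the doxorubicin libraries, with no overlap. TP53BP1, which shields ends from resection, and the polymerase POLM overlapped between the groups. TP53BP1 was called lower without doxorubicin replicate 3 (-0.32, adjusted p = 0.0177). After quantile normalization 1 member of this pathway was lower (PRKDC, -0.70) and 2 were higher (XRCC4 and POLM), against 28.7% and 33.0% of all genes tested.

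Translesion synthesis had 2 listed members. POLK (ENSG00000122008, chr5:75511756-75601144), the polymerase kappa that copies past bulky lesions, went from 3.17, 4.32 and 3.35 TPM to 1.69, 1.49 and 2.37 TPM (log2 fold change -0.70 ± 0.16, adjusted p = 0.00257 in limma). Its groups did not overlap. REV3L, the catalytic subunit of polymerase zeta, overlapped between the groups (-0.12, 95% interval -0.47 to 0.23).

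The pattern also takes in genes whose main role lies elsewhere. RAD21 (ENSG00000164754), a subunit of the cohesin ring that holds sister chromatids together, stood at 37.1, 40.7 and 35.5 TPM and then at 19.6, 17.7 and 20.1 TPM (log2 fold change -0.94 ± 0.09, adjusted p = 1.55e-05 in limma). The groups stood well apart. PARP8, PARP9 and PARP14, all ADP-ribosyltransferases, had log2 fold changes of -0.42, -0.31 and -0.48, and none was called after quantile normalization. PARP9 lost its call without control replicate 1, control replicate 2, doxorubicin replicate 1 or doxorubicin replicate 2 (adjusted p = 0.0849 to 0.129 in limma). ERCC6L, a translocase of mitotic chromosomes, was too low to test, at 1.62, 1.6 and 1.35 TPM and then at 0.06, 0.06 and 0.16 TPM. PMS2P10 (ENSG00000276840, chr7:75288120-75299795), a pseudogene of the PMS2 family, rose from 0.03, 0.71 and 1.06 TPM to 3.27, 2.46 and 1.98 TPM (log2 fold change 1.2 ± 0.24, adjusted p = 0.00192 in limma). The groups did not overlap, but the copies of this family are nearly identical and reads may have been assigned among them, so the value is uncertain.

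Other genes of the same pathways, taken from lists of 94 symbols outside the pattern, were also read. Of these, 48 were listed and 45 tested, and 31 were downregulated and 6 upregulated, against 48.5% and 22.7% of all genes tested. Their median was -0.55, against -0.28 over all genes tested. The kinase PKMYT1, which holds CDK1 inactive, had the largest fall, from 9.88, 10.6 and 11.1 TPM to 0.44, 0.36 and 0.26 TPM (-3.09 ± 0.12, adjusted p = 2.20e-08 in limma). CDC25C, the phosphatase that activates CDK1, went from 3.61, 4.09 and 3.99 TPM to 0.19, 0.08 and 0.15 TPM (-2.10 ± 0.12). UBE2T, the ubiquitin-conjugating enzyme for FANCD2 and FANCI, went from 21.6, 25.8 and 26.6 TPM to 4.16, 5.64 and 5.44 TPM (-2.08 ± 0.13). In all 3 genes the groups were far apart. PKMYT1 and CDC25C passed the filter through the control libraries, so their p-values are descriptions. The Fanconi list had 5 of 6 tested genes lower, homologous recombination 10 of 13, end joining 3 of 4, translesion synthesis 2 of 2, checkpoint signalling 8 of 10, base excision 2 of 6 and nucleotide excision 1 of 4, the last 2 below the 48.5% of all genes. The 6 upregulated genes included FAAP20 of the Fanconi core, BABAM2 of the BRCA1-A complex, the TFIIH subunit GTF2H5, the ribonucleotide reductase subunit RRM2B and the phosphatase PPM1D. Their log2 fold changes ran from 0.27 to 0.35, all smaller than that of XPC. After quantile normalization 17 of the 45 were lower and 10 higher, against 28.7% and 33.0% of all genes tested.

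Doxorubicin replicate 3 was the highest doxorubicin library in 33 of the 44 members called lower (75%), and in 77.8% of all genes called lower. Control replicate 2 was the highest control library in 26 of them (59.1%), and in 59.6% of all genes called lower. Doxorubicin replicate 2 was the lowest doxorubicin library in 59.1% of these members and in 73.0% of all genes called lower, and doxorubicin replicate 1 in 34.1% and 20.5%. These shares were not tested against each other. Leaving out 1 library at a time gave 40 to 44 members lower and 4 to 5 higher. Over the 60 protein-coding members tested, the genomic span of a gene and its log2 fold change had a Spearman's rho of -0.06, and over all 5322 protein-coding genes tested -0.44, both given as a description across genes of the same libraries.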

How the data were processed

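RNA of WI-38 cells was sequenced from both ends on an Illumina instrument by a sequencing company. The deposited values of the 3 control and 3 doxorubicin libraries were taken as TPM made by the authors, since the table names no unit, and FPKM would differ by 1 constant per library, so ratios of genes within a library hold under either unit. The submitters' processing notes list CASAVA, HISAT2, StringTie, RSEM, DESeq2, edgeR and the mouse build GRCm38, although the gene identifiers are human; the roles of these tools are not given in the sources used here. The table's columns of fold change, p-value and direction hold the authors' own comparison and were not used. It lists only genes past their thresholds. TPM keeps no depth, so precision was judged from the libraries.

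Members were all genes whose symbol matched the pattern, and members, pathway lists and named genes were chosen with earlier results of these data known. Named were a core list of repair genes whatever their values, the called member with the largest rise and fall in each pathway and every upregulated member; other members named singly in the text were chosen after their values were seen. A few genes are not reported here. After adding 1 TPM and taking log2, the 5721 of 6499 genes that averaged 1 TPM or more were kept, and groups were compared with limma 3.58.1 (eBayes, trend and robust) in R 4.3.3, with Benjamini-Hochberg adjustment over all genes kept. On this scale the change of low genes is understated. On simulated data for doxorubicin against control over 5721 genes, 97 of 100 genes changed by a log2 size of 1 and 100 of 100 changed by 2 were recovered, with 7 unchanged genes called. The data differ from that setting, with 2775 genes called lower and 1301 higher, far more than the 100 changed at each size. The share of wrong calls in the data was not tested. GENCODE release 29 (GRCh38) gave the gene positions and RefSeq (GRCh38.p14) the promoters. Exons of 35 members overlap another gene. Alternatives were a pseudocount of 0.1, other filters, quantile normalization, median centring, a replicate block, other thresholds, limma without trend and robust, and fits without each library in turn. Tables were handled with SciPy 1.17.1, NumPy 2.4.6 and pandas 2.3.3 under Python 3.11.15.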

Additional observations from a re-analysis of the deposited data

How the results depend on the processing

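As deposited, 44 members were lower and 4 higher. A mean of at least 5 TPM, which leaves fewer genes to test, gave 24 lower, with 4 Fanconi genes, 3 of homologous recombination, 1 of end joining, 0 of translesion synthesis and 2 replicative polymerases. Quantile normalization gave 29 lower and 10 higher, with 7 genes of homologous recombination, 1 of end joining, 1 of mismatch repair, 5 checkpoint genes and 1 gene with mainly another role lower, and median centring gave 9 higher, with 1 of mismatch repair and 1 with mainly another role lower; both move the median of all genes toward 0 by construction. The median log2 fold change changed sign for end joining (0.0018 after quantile normalization and 0.087 after median centring) and for base excision repair (0.043 after quantile normalization). ATM, BRCA1, CHEK2 and MSH6 were not called after quantile normalization, and MSH6 was not called after median centring (-0.20). The replicate numbers did not pair the libraries (correlations of the deviations of same-numbered libraries from their group means -0.06, -0.19 and -0.23), and with a replicate block 41 members were lower and 4 higher. Without 1 library at a time, 40 to 44 were lower and 4 to 5 higher. All other counts of lower genes by pathway stayed within 1.5 times the value as deposited. Depth is unknown, and members under 1 TPM were not tested.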
